A study of Mus musculus with 81 samples.

Results

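Glo1 and Hagh encode both enzymes of the glyoxalase pathway, and they are described here as 2 genes among 22180 measured in mouse heart. They were taken by name, each by its only probe set with a single gene symbol. Glo1 is Entrez gene 109801 and Hagh is Entrez gene 14651, both on chromosome 17, with 140 other measured genes between them in the RefSeq order. Methylglyoxal, a reactive by-product of glycolysis, binds glutathione, and glyoxalase I (Glo1) turns the adduct into lactoylglutathione. Glyoxalase II (Hagh) then splits that intermediate into D-lactate and free glutathione. Some inbred mouse strains, DBA/2J among them, are known to carry an extra copy of a stretch of chromosome 17 that holds Glo1, and C57BL/6J is known to lack it. Copy number itself was not measured here.

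The hearts came from BXD recombinant inbred strains, inbred lines bred from C57BL/6J and DBA/2J, and from these parent strains themselves. All animals were males of 29 weeks fasted overnight, fed either chow (42 arrays, from 40 BXD strains and the parents) or a high fat diet (39 arrays, from 37 BXD strains and the parents). Each array held RNA pooled from about 5 animals of 1 strain on 1 diet, so animals within a pool cannot be told apart, and the 39 strains with both diets served as replicates. The shared protocol text describes chow feeding alone, and diet was taken from the treatment label. Levels are given in units of the deposited score (rescaled units in the plots), which puts the probe sets of any array at mean 8 with SD 2. A unit cannot be read as a doubling, and no fold is given. The cardiomyocyte markers Myh6, Tnnt2, Tnni3 and Actc1 lay above percentile 99 of all genes and Myl2, also a cardiomyocyte marker, at percentile 91.8, while the liver marker Alb ran from 7.91 to 15.54 over the arrays. The mean of Alb and Apoa1 ran from 8.14 to 14.38 on chow (median 10.51) and from 8.41 to 11.66 on high fat (median 10.45).

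The stretches of 250 bases before the annotated starts of both genes are shown so that the regulatory sequence nearest to each can be compared (RefSeq, GRCm38.p6). That of Glo1 is at chr17:30612660-30612909 on the minus strand and that of Hagh, before its most upstream start of 2 in the table, at chr17:24850240-24850489 on the plus strand. Capitals mark the CCAAT motif on either strand. Each stretch held 1 match, and 33.8% of 32851 such stretches of all genes held at least 1. The antioxidant response core TGACNNNGC, searched on both strands, was found in neither and in 10.2% of all stretches.
Glo1: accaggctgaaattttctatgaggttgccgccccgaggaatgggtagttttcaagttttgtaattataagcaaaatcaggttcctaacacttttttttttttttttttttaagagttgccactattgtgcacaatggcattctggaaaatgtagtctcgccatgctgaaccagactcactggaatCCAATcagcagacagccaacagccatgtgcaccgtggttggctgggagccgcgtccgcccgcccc
Hagh: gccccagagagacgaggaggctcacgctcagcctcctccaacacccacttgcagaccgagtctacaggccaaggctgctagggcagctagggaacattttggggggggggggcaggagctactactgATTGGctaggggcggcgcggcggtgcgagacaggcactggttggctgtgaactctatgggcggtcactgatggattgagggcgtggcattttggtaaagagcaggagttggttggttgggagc

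Glo1 levels fell into 2 separate ranges over the strains, with the parents in different ranges. C57BL/6J had 11.25 on chow and 10.91 on high fat, and DBA/2J had 11.76 and 11.76. The parent arrays thus differed by 0.515 units on chow and 0.849 on high fat, with DBA/2J higher on each diet. On chow 29 strains lay between 10.69 and 11.26 (median 11.05) and 13 between 11.53 and 11.92 (median 11.72). The gap of 0.265 between these ranges was the widest of all gaps with at least 6 strains on each side, and the widest gap inside either range was 0.141. C57BL/6J belonged to the lower range and DBA/2J to the upper. Of the 40 BXD strains on chow 12 were in the upper range, or 30% (95% exact binomial interval 16.6 to 46.5, for counting error only). Because Glo1 was taken up here for this variation, its strain pattern is given without a test.

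The split recurred on the high fat arrays, which are separate pools of the same strains. There 25 strains lay between 10.81 and 11.17 and 14 between 11.43 and 11.76, on either side of a gap of 0.255. Of the 39 strains on both diets 38 kept their range, 25 the lower and 13 the upper. The 13 were DBA/2J, BXD44, BXD50, BXD56, BXD62, BXD63, BXD68, BXD69, BXD73, BXD80, BXD98, BXD99 and BXD103. The means of a strain's arrays left a gap of 0.382 between 11.15 and 11.53, with 26 strains below and 13 above. The spread between diets gave a strain mean an SD of 0.0993, or 0.0867 without BXD70. Inside the ranges the widest gap between neighbouring strain means was 0.093, between BXD49 and BXD66, which is under the first of these and over the second. All other neighbours inside the ranges lay closer together than either SD.

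**Figure D1:**
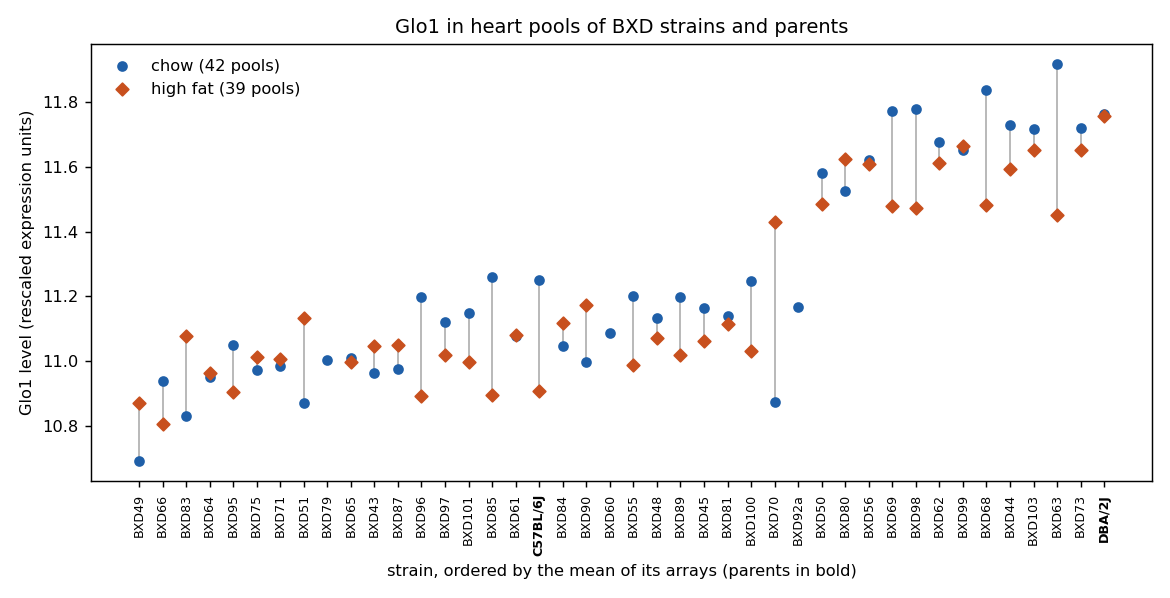
Glo1 level in score units (y axis) for each strain (x axis, ordered by the mean of its arrays), with chow pools as circles, high fat pools as diamonds and a line joining the pools of a strain. The upper 13 strains, DBA/2J among them, have strain means from 11.53 upward, and BXD70 alone has its pools on different sides of the gap.

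BXD70 was the strain that changed range. Its Glo1 level was 10.87 on chow, where 3 chow arrays were lower, and 11.43 on high fat, where 25 high fat arrays were lower, a difference of 0.554 that was the largest of any strain in size. Over 3099 genes of other chromosomes called by the strain test, its high fat array correlated best with its own chow array (r = 0.601, against a median of 0.608 for all strains). The same held over 180 such genes on chromosome 17 (r = 0.729), which leave out Glo1. These genes were called because arrays of a strain agree under the given labels. A match is thus partly built in, and the labels of BXD70 were not tested. Of the genes on chromosome 17 most like Glo1 across strains, described further on, some moved up in BXD70 and others did not. Ppil1 had 8.60 on chow and 9.08 on high fat there, a difference of 0.489 in the direction of Glo1. H2-Ea had 12.23 and 11.55, a difference of -0.681. Dnah8 had 6.76 and 6.50, and Btbd9 had 9.75 and 9.82. Hagh had 10.37 on chow and 10.60 on high fat in this strain.

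Within the ranges, which were set from these same levels, the relation between the diets is a description without a test. Over the 25 strains in the lower range Glo1 on chow and on high fat had a Pearson r of -0.0383 and a Spearman rho of -0.132. Over the 13 in the upper range r was -0.374 and rho -0.522. Without the 2 strains farthest from the median these r were -0.223 and -0.151. The intraclass correlation of a strain's 2 arrays was 0.803 over all strains, at percentile 99.2 of all genes, whose median was 0.155.

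Of the genes beside Glo1, Dnah8 and Btbd9 had the highest Pearson r with it across strains. Dnah8, an axonemal dynein heavy chain, is the second measured gene on one side of Glo1, and Btbd9, a BTB domain protein, is the second on the other. Dnah8 ran from 6.54 to 7.30 on chow (median 6.83) and from 6.48 to 7.30 on high fat (median 6.77), below the median gene level of 8.18. The parents had 6.55 and 6.71 in C57BL/6J and 7.28 and 7.03 in DBA/2J, on chow and high fat, and did not overlap. The difference of 0.523 ± 0.118 (SE) between the parents passed limma's test (adjusted p = 0.00557), as did 2.36% of all genes. Divided at its widest gap with at least 6 strains on each side, which was 0.0725 and narrower than another of 0.0935 nearer an end, Dnah8 put 37 of 39 strains on the side they had for Glo1. The exceptions were BXD49, above for Dnah8 and lowest of all strains for Glo1, and BXD50, below for Dnah8.

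Btbd9 levels ran from 9.51 to 10.53 on chow (median 9.91) and from 9.48 to 10.55 on high fat (median 10.02). C57BL/6J had 9.85 and 10.05 and DBA/2J 10.20 and 10.39, on chow and high fat, higher in DBA/2J on each diet. The difference of 0.345 ± 0.133 (SE) did not pass (adjusted p = 0.207). Btbd9 did not share the split of Glo1 as Dnah8 did. Divided at its widest gap with at least 6 strains on each side (0.0555), it matched the Glo1 sides in 25 of 39 strains. Zfand3, a neighbour with an r of -0.184, had 27 by this count, which takes the better direction. Pearson r with Glo1 over 39 strain means was 0.801 for Dnah8 and 0.790 for Btbd9. It was 0.761 and 0.618 over the chow arrays and 0.669 and 0.744 over the high fat arrays. Within the lower range it turned to -0.462 and -0.325 (26 strains), and within the upper range it was 0.207 and -0.319 (13 strains). So both genes had a high r over all strains and a negative one inside the lower range. These r are descriptions over strains that share chromosome segments.

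Most close neighbours were not called for strain, which also held for most genes. Of the 15 measured genes on each side of Glo1, 6 of 30 passed the strain test, where 14.8% of all genes did, and no excess was tested. The median intraclass correlation of these neighbours was 0.107, against 0.155 for all genes. For the parents 2 passed, Dnah8 and Pim1. Pim1, a serine/threonine kinase, is 11 measured genes away and went the other way. It had 10.36 and 10.33 in C57BL/6J and 9.84 and 9.71 in DBA/2J, a difference of -0.568 ± 0.141 (SE, adjusted p = 0.0154, limma), and an r with Glo1 of -0.555. The r of the other 27 neighbours lay between -0.293 and 0.40. Glp1r, the receptor of glucagon-like peptide and the next measured gene beyond Dnah8, had an r of 0.124, and Zfand3, the next beyond Btbd9, had -0.184.

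**Figure D2:**
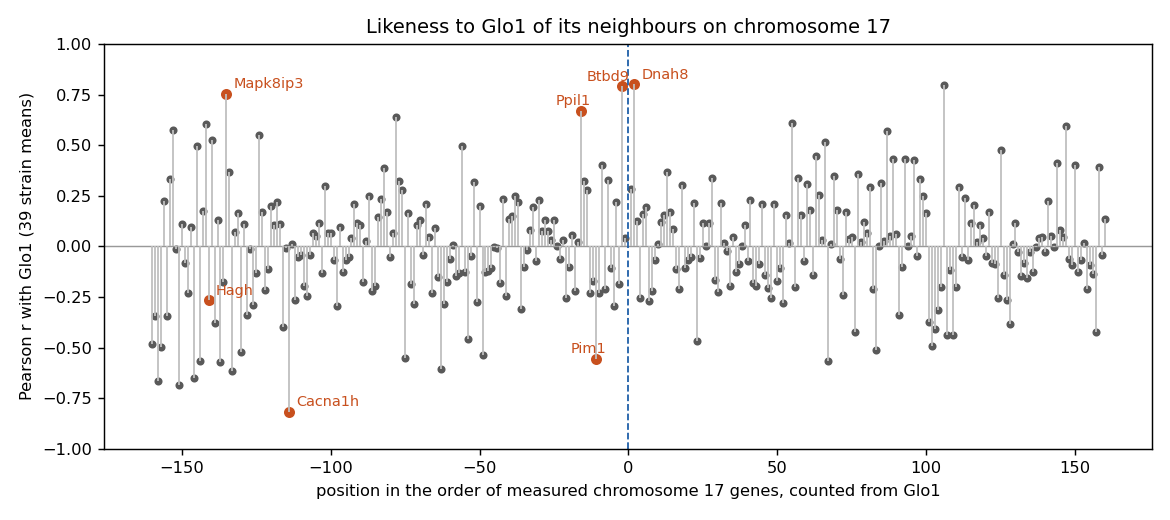
Pearson r with Glo1 over 39 strain means (y axis) for the chromosome 17 genes nearest to Glo1 by their place in the order of measured genes counted from Glo1 (x axis, dashed line at Glo1), each point a gene. Btbd9 (0.790) and Dnah8 (0.801) stand beside Glo1, Cacna1h (-0.816) is 114 genes away, and Hagh (-0.266) is 141 genes away.

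Over all genes, those most like Glo1 across strains lay mainly on its own chromosome. An r above 0.5 in size was found for 91 genes, 46 of them positive, and 56 of the 91 are on chromosome 17, or 61.5%, where that chromosome holds 4.86% of all genes with a known place. The 10 highest by name were Dnah8, H2-Ea (0.797), Btbd9, Mapk8ip3 (0.754), Olfr872 (0.705), Olfr873 (0.685), Ppil1 (0.670), Olfr39 (0.650), Fam234a (0.641) and H2-T24 (0.636). The 3 olfactory receptors are on chromosome 9 and the other 7 on chromosome 17. The 5 lowest were Cacna1h (-0.816), Zfp945 (-0.702), Gfer (-0.685), Pkd1 (-0.664) and Atp6v1g2 (-0.663), all on chromosome 17. H2-Ea, an MHC class II chain 106 measured genes from Glo1, had 6.76 and 6.97 in C57BL/6J and 10.46 and 11.41 in DBA/2J. Cacna1h, a T-type calcium channel, had the largest r in size of any gene, but within the ranges its r was 0.0915 (lower) and -0.452 (upper).

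Hagh varied over a narrower range than Glo1, and none of the relations to Glo1 that were tested passed. On chow it ran from 10.17 to 10.81 (median 10.46, 42 arrays) and on high fat from 10.02 to 10.90 (median 10.32, 39 arrays). C57BL/6J had 10.55 on chow and 10.27 on high fat, and DBA/2J had 10.22 and 10.36, so the order of the parents turned between the diets. Their difference, DBA/2J minus C57BL/6J, was -0.118 ± 0.150 (SE) and did not pass limma's test (adjusted p = 0.820). The strain test did not call Hagh either (adjusted p = 0.161, limma F test). Its intraclass correlation was 0.268, at percentile 70.4 of all genes. Hagh on chow and Hagh on high fat had r = 0.270 and rho = 0.255 over 39 strains (permutation p = 0.0983 and 0.118, adjusted p = 0.374 for each), and r was 0.244 without the 2 strains farthest from the median.

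Because Glo1 levels form separate ranges, Hagh was set against Glo1 within each of them. Inside the ranges Glo1 itself was not alike between the diets (r of -0.0383 in the lower and -0.374 in the upper). The tests within ranges therefore cannot decide whether Hagh follows Glo1. Over the 26 strains below the gap Pearson r of the strain means was 0.281 and Spearman rho 0.232 (permutation p = 0.166 and 0.256, adjusted p = 0.374 and 0.384). Over the 13 strains above it r was 0.109 and rho 0.366 (permutation p = 0.724 and 0.218, adjusted p = 0.790 and 0.374). Without the 2 strains farthest from the median r was 0.157 below and 0.576 above, so the value above the gap rested on those strains. The changes of both genes between the diets had r = 0.226 and rho = 0.141 over 39 strains (permutation p = 0.165 and 0.388, adjusted p = 0.374 and 0.517), and r = -0.00955 without BXD63 and BXD70, the strains with the most extreme Glo1 changes. None of these relations between the glyoxalases passed, and Hagh was not tested between the strains below and above the gap. The p-values were adjusted over 6 relations with both coefficients, which include those of Glo1 with itself within its ranges. By the measure used for all genes, Hagh (r = -0.266) ranked 2254 of 22179 genes by the size of r with Glo1.

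**Figure D3:**
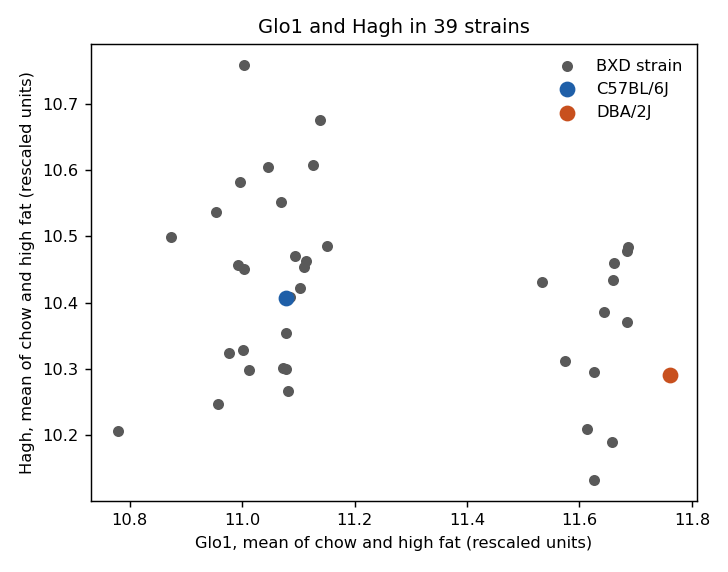
Hagh (y axis) against Glo1 (x axis), each the mean of both arrays of a strain in score units, with 37 BXD strains in grey and the parents in colour. Glo1 leaves an empty stretch between 11.15 and 11.53, with C57BL/6J to its left and DBA/2J to its right, and Hagh runs from 10.13 to 10.76 over all strains.

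The high fat diet went with a lower level of Hagh. Its mean over 39 strains was 10.49 ± 0.162 (SD) on chow and 10.32 ± 0.184 (SD) on high fat. The difference was -0.170 ± 0.0340 (SE, 95% interval -0.239 to -0.102, adjusted p = 7.24e-05, limma with strain as a block). It was lower in 29 strains and higher in 10, from -0.591 in BXD43 to 0.283 in BXD65. Among all genes 45.0% were called for diet, 21.2% as lower on high fat. The difference in size exceeded that of 79.2% of genes. Of 92 probe sets for ERCC controls, which target added synthetic RNA and no mouse gene, 37 were called between the diets by the same test (40.2%) and 18 differed by at least as much as Hagh. Their mean level was 5.96, below that of Hagh. In whole heart, fewer cells of a type and less RNA per cell cannot be told apart. With the mean of Alb and Apoa1 as a covariate the Hagh difference was -0.168 (adjusted p = 8.73e-05, limma).

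For Glo1 the call for diet depended on a single strain. Its mean over 39 strains was 11.27 ± 0.344 (SD) on chow and 11.21 ± 0.287 (SD) on high fat. The difference was -0.0611 ± 0.0325 (SE, 95% interval -0.127 to 0.00443) and did not pass (adjusted p = 0.123, limma). It was negative in 25 strains and positive in 14. Without BXD70 it was -0.0773 and passed (adjusted p = 0.030). Removal of any other single strain left it uncalled. Over 39 strains the Glo1 difference exceeded in size that of 38.3% of genes. Of the 92 ERCC control probe sets, 54 differed between the diets by at least as much. In the upper range, which was set from these same levels, 11 of 13 strains had the lower level on high fat. These are among the 25 strains given above, and no difference between the ranges was tested. The Hagh difference minus the Glo1 difference was -0.109 ± 0.0407 units (SE), negative in 25 of 39 strains (sign-flip permutation test, two-sided, p = 0.0110, and p = 0.0173 without BXD70). That comparison was not among the planned tests, and its p-values were not adjusted. A score unit need not mean the same change in RNA for both probe sets.

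**Figure D4:**
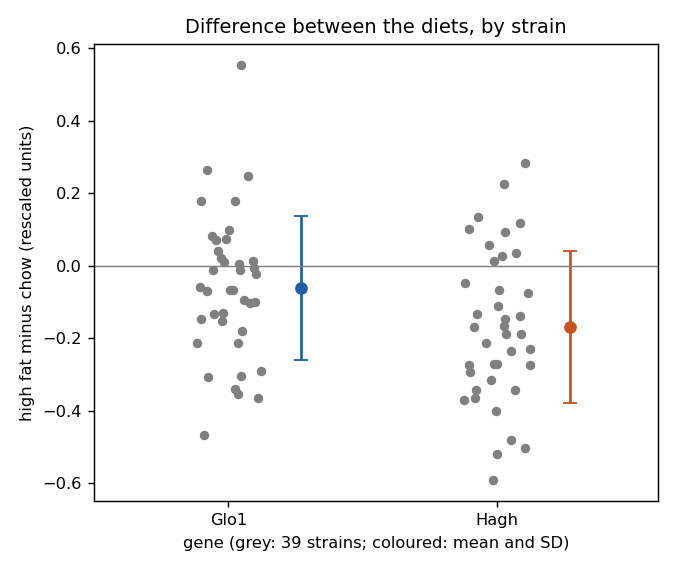
High fat minus chow in score units (y axis) for Glo1 and Hagh, each grey point a strain of 39 and the coloured point and bar the mean and SD over strains. Most Hagh points lie below 0 (29 of 39), and the highest Glo1 point, at 0.554, is BXD70.

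The genes around the pathway were followed in 6 lists with 33 measured members of 35. Of these 4 were higher and 11 lower on high fat, where 23.8% and 21.2% of all genes were called in these directions, and the median difference was -0.0375 units against 0.00526 over all genes. The limit given for Hagh holds for these lists too. Among the ERCC control probe sets 40.2% were called between the diets, and percentile 95 of their differences in size was 0.247 units. D-lactate, the product of Hagh, is oxidised by Ldhd, which fell from 11.18 ± 0.212 to 10.96 ± 0.248 (SD, n = 39), a difference of -0.214 ± 0.0429 (SE, adjusted p = 7.31e-05, limma). It was lower in 30 strains. Among 5 genes that supply glutathione, the cofactor of the pathway, 1 rose and 2 fell. Slc7a11, the cystine carrier, rose by 0.142, Gss, glutathione synthetase, fell by 0.116 and Gclm, the regulatory subunit of glutamate-cysteine ligase, fell by 0.227. Gsr, the reductase that restores glutathione, differed by 0.0543 and did not pass (adjusted p = 0.337).

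Enzymes that remove methylglyoxal by other routes moved in both directions. Of 8 measured members 3 rose and 2 fell, where 23.8% and 21.2% of all genes were called in these directions. The aldo-keto reductases Akr1b8 and Akr1a1 rose by 0.348 ± 0.0536 and 0.119 ± 0.0206 (SE, adjusted p = 1.01e-06 and 8.71e-06, limma), higher in 33 and 35 of 39 strains. Park7, also known as DJ-1, for which a glyoxalase activity has been debated, rose by 0.106 ± 0.0239 in 30 strains. Aldh2, the mitochondrial aldehyde dehydrogenase, fell by 0.0916. Among 4 measured genes of triose phosphate handling, the source of methylglyoxal, Gpd1l alone was called and fell by 0.134, while triose phosphate isomerase (Tpi1) differed by 0.0575 (adjusted p = 0.0809).

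Relatives of the glyoxalases by protein fold gave 4 falls and 0 rises among 11 measured (adjusted p under 0.05, limma). Of all genes 21.2% were called lower and 23.8% higher, and no list was tested against these shares. Hpdl, related to 4-hydroxyphenylpyruvate dioxygenase, fell by 0.415 ± 0.0462 (SE, adjusted p = 9.82e-10), in 35 of 39 strains. Mcee, methylmalonyl-CoA epimerase, fell by 0.113, Haghl, the closest listed relative of Hagh by name, by 0.115, and Ethe1, the mitochondrial persulfide dioxygenase, by 0.0838. Of 4 genes for proteins that bind glycated proteins, Ager, the receptor for advanced glycation end products, fell by 0.237 ± 0.0474 (SE, adjusted p = 7.37e-05), and the other 3 were not called.

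**Figure D5:**
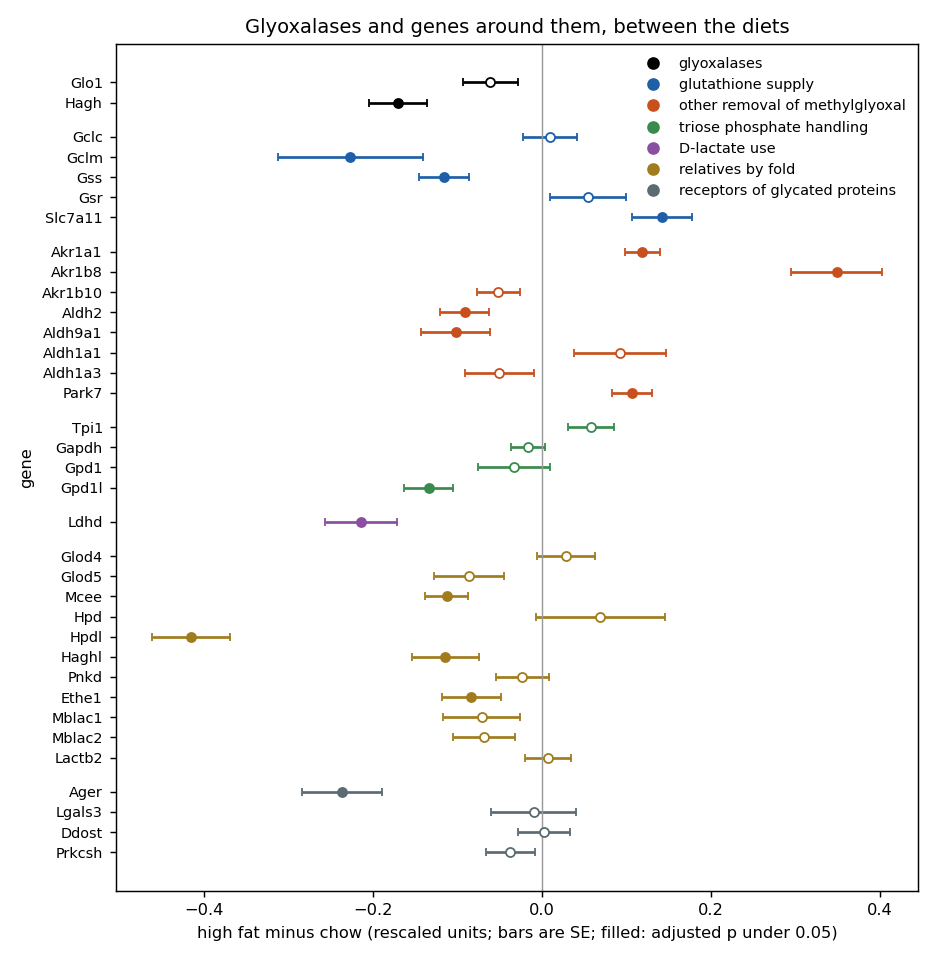
High fat minus chow with its SE in score units (x axis) for both glyoxalases and 33 genes of 6 lists (y axis, coloured by list, glyoxalases in black), filled where the adjusted p was under 0.05. Hagh and Ldhd lie to the left of 0 at -0.170 and -0.214, Akr1b8 lies farthest right at 0.348, and Hpdl farthest left at -0.415.

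Between strains these genes were less like Glo1 than its neighbours Dnah8 and Btbd9. Their r with it over the 39 strain means ran from -0.297 for Ddost to 0.301 for Hpdl. Strain called 14 of these 33 genes, a larger share than the 14.8% of all genes. Between the parents 1 was called, Aldh9a1, an aldehyde dehydrogenase named here after its values were seen, whose DBA/2J minus C57BL/6J difference was -0.776 units (adjusted p = 0.0074, limma).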

How the data were processed

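Each probe set has a deposited score, log-like with no stated base, made by the authors with Affymetrix Expression Console, per the submitters' processing notes. Its version, its summarisation and background steps and a genome build were not given in the sources used here. All arrays share mean 8 and SD 2 across 41345 probe sets, so shifts shared by most genes cannot be seen. Arrays set no depth, and their number limits the precision. A gene was named from probe sets with 1 symbol (23521, against 1814 with several), by the one with the highest mean over 81 arrays. RefSeq (GRCm38.p6) served for gene order.

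Diet, strain and parents were tested with limma 3.58.1 in R 4.3.3 on 78 arrays of 39 strains, in a model of strain plus diet. The p-values of these tests were adjusted by Benjamini-Hochberg across 22180 genes. The strain labels pair the diets. The robust variance model among the alternatives used statmod 1.5.0. Correlations over strains used 100000 permutations, two-sided, adjusted over their family. Named are the members, up to 4 genes a list with the smallest adjusted p for diet, neighbours called for the parents or with an r over 0.5 in size, and the 10 highest and 5 lowest r with Glo1. Members and lists were chosen with earlier results of these data known. All p-values measure the spread between pools and not between animals.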

Additional observations from a re-analysis of the deposited data

How the results depend on the processing

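The fall of Hagh on high fat kept its direction and its call in the 10 alternatives run, between -0.181 and -0.162 (adjusted p up to 0.000217), and with each of 39 strains left out in turn (-0.182 to -0.159). These covered quantile and median scaling, the variance model, array weights, dim genes, the strain block, BXD strains alone, and, chosen after seeing the data, the removal of BXD70 and a liver covariate. The mean over probe sets is counted too but could not change either member, since each has 1. The Glo1 difference stayed negative and uncalled in 9 of 10, and was called at -0.0773 without BXD70. With single strains left out it ran from -0.0773 to -0.0504 (adjusted p 0.030 to 0.198). Hagh stayed uncalled for strain and for the parents in all 6 alternatives each. Genes called for diet numbered 9985 of 22180, or 4720 when only genes above the median level were tested. That filter left fewer genes to test, so the lower count does not by itself mean a lower share. Above the Glo1 gap r of Glo1 with Hagh turned to -0.217 over high fat arrays alone and to -0.0468 after quantile normalization, and it passed in none. The cause was not tested. No paired analysis by replicate number was possible because the labels carry none, and strain paired the arrays instead.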

Other observations

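Across strains the levels of Hagh were most like those of Idh2, the mitochondrial NADP-dependent isocitrate dehydrogenase, with an r of 0.696 over 39 strain means (0.709 over chow and 0.564 over high fat arrays). These genes were ranked after the data were seen, and r is a description without a test. Next came Slc25a11, the mitochondrial carrier of oxoglutarate and malate (0.654), Igfals, the acid-labile subunit of the circulating growth factor complex (0.652), and Timm17a, part of the inner membrane import channel (0.645). Pcsk2os2 (0.637), Coa3, an assembly factor of cytochrome oxidase (0.630), Zfp995 (0.628), Acot13, a thioesterase (0.625), Cox14 (0.625) and Timm8b (0.612) completed the first 10. Igfals and Zfp995 are on chromosome 17 and the other 8 on other chromosomes. Igfals stands 139 measured genes from Glo1, close to Hagh at 141. The lowest r were those of Cers6, a ceramide synthase (-0.650), and Cdh13, T-cadherin (-0.632).

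Genes alike across strains did not all share the change of Hagh between the diets. Idh2 differed by -0.155 ± 0.0294 (SE, adjusted p = 3.25e-05, limma) and Igfals by -0.237 ± 0.0379 (adjusted p = 2.13e-06), both lower on high fat. Cox14 was higher by 0.150 ± 0.0297 (adjusted p = 6.06e-05). Timm17a differed by -0.000692 ± 0.0262 and did not pass (adjusted p = 0.986).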
